A study of Mus musculus with 576 samples.

Results

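The DNA replication machinery was followed here as 46 genes that encode the proteins which license, open and copy replication origins. The genes were taken from a list of names, and each matched 1 of the 46078 gene entries of the deposited tables by its mouse Ensembl identifier. They were measured in single haematopoietic stem cells (HSCs) from mouse femurs and tibias, sorted as CD150+, CD48-, cKit+ and Sca1+ cells, a phenotype of long-term HSCs. The cells of LPS-treated mice formed the p27 high, p27 low and p27 negative classes, and the cells of control mice formed the same 3 classes. LPS (lipopolysaccharide) comes from the outer membrane of bacteria and is sensed by innate immune receptors. The p27 protein inhibits cyclin-dependent kinases, and its marker was used to grade how quiescent (G0) a cell is. The 6 groups had 96 cells each, with 1 RNA library per cell. The number, age and strain of the animals, the dose and time of LPS and the construction of the p27 marker were not stated in the labels. All groups carried the same surface gate, and each counts as 1 sample, so no difference between groups was tested. In a group's summed reads, fewer cells with a transcript and less of it per cell cannot be told apart.

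Replication starts in 2 separable steps. In G1, the origin recognition complex (ORC), Cdc6 and Cdt1 load the ring-shaped MCM2-7 complex onto DNA, which licenses an origin but leaves the helicase inactive. At the G1/S transition the DBF4-dependent kinase and cyclin-dependent kinases recruit Cdc45 and the GINS complex, which turn the MCM ring into the active helicase, and Mcm10 acts at this step. Primase, the polymerases, the sliding clamp PCNA with its loader RFC, the single-strand binding protein RPA and the enzymes that join Okazaki fragments then copy the DNA. Geminin, the product of Gmnn, blocks Cdt1 so that origins are not licensed again in the same cycle. HSCs divide rarely, and many genes of this machinery are known targets of the E2F transcription factors.

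Of the 576 cells, 547 with at least 50000 gene reads were kept, namely 93 p27 high, 90 p27 low and 92 p27 negative LPS cells and 84 p27 high, 93 p27 low and 95 p27 negative control cells. Kept cells held between 52163 and 1942773 gene reads, and a group's summed reads ranged from 21714440 to 49018367. Of 12 listed HSC markers at least 11 had 1 CPM or more in every group. One kept control p27 negative cell had 97.9% mitochondrially encoded reads. The 12 markers summed to 3460, 2957 and 1974 CPM in LPS p27 high, low and negative cells, against 3454, 2792 and 2039 CPM in control. Their sum was thus lowest in the p27 negative groups, but not every marker ran that way. Of the 12, 3 and 5 were lower in LPS p27 high and low than in p27 negative cells, and 2 and 1 in control. Among all genes compared, 45.3%, 47.6%, 46.9% and 46% were lower, in the same order. The part of these markers in the replication levels was not tested. Summed gene reads per ERCC spike-in read, a measure of RNA per cell, were 25.6, 23.9 and 44.8 in LPS p27 high, low and negative cells, against 9.37, 9.84 and 12.7 in the same control classes. The medians over cells were 24.9, 24.3 and 46.2 for LPS and 16.2, 18.1 and 21.6 for control. In these medians LPS and control cells of the same class lay closer together than in the sums. Levels below are CPM, a group's reads for a gene scaled to its summed gene reads, so they describe a gene's share of the RNA and not its amount per cell. Intervals in parentheses are exact 95% Poisson intervals, which describe counting error alone, since libraries without molecular identifiers count PCR copies.

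The promoters of 5 genes are shown because these genes differ in how far they followed p27 class, 3 helicase activation genes with low levels in p27 high and low cells (Cdc45, Mcm10 and Gins3) and 2 MCM genes that differed less, Mcm5 with 1.753 times and Mcm6 with 1.43 times the level in its highest group over its lowest. Each sequence covers the 250 bases before the transcription start in RefSeq on build GRCm38.p6. Capitals mark CCAAT, which is ATTGG on the other strand, and the E2F words TTTCCCGC, TTTCGCGC, TTTGCCGC and TTTGGCGC on either strand, where overlapping words run together. The regions are chr16:18811973-18812222, minus strand for Cdc45, chr2:5012792-5013041, minus strand for Mcm10, chr8:95633309-95633558, plus strand for Gins3, chr8:75109259-75109508, plus strand for Mcm5 and chr1:128359706-128359955, minus strand for Mcm6.
Cdc45: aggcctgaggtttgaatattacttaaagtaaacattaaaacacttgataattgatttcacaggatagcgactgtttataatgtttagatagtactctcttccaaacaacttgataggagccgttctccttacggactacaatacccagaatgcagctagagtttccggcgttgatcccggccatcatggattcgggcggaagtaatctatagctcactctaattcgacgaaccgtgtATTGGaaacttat
Mcm10: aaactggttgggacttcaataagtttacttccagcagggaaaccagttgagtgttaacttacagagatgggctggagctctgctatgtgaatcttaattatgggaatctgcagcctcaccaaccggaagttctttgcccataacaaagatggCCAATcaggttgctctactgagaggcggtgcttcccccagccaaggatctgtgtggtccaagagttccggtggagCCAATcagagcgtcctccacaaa
Gins3: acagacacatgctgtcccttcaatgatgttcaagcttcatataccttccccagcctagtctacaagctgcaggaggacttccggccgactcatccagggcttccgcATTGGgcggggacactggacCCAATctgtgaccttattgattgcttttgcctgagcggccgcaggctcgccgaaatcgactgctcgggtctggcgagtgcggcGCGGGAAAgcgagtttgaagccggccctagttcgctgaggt
Mcm5: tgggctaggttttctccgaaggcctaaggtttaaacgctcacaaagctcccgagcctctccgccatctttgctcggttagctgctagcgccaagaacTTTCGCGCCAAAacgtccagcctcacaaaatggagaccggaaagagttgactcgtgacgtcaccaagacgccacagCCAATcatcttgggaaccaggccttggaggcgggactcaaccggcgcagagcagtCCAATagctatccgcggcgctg
Mcm6: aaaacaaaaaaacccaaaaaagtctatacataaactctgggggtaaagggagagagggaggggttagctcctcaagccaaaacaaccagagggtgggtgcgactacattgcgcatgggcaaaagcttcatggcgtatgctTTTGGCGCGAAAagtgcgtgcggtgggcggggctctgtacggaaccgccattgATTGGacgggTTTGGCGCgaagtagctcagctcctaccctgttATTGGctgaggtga
In the GENCODE M21 annotation of the same build the genes lie as Cdc45 (ENSMUSG00000000028) at chr16:18780447-18811987, Mcm10 (ENSMUSG00000026669) at chr2:4989714-5012791, Gins3 (ENSMUSG00000031669) at chr8:95633453-95645060, Mcm5 (ENSMUSG00000005410) at chr8:75109569-75128439 and Mcm6 (ENSMUSG00000026355) at chr1:128331590-128359664. The Cdc45 and Mcm10 windows held no E2F word, Gins3 held 1, Mcm5 held 2 and Mcm6 held 3. Between the E2F word nearest the RefSeq start and that start lay 33 bases in Gins3 and 39 bases in Mcm6. The Cdc45 and Gins3 windows reach into the genes as annotated by GENCODE, and the Gins3 E2F word lies within that annotated gene.

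RefSeq held a promoter for 37 of the 46 genes. An E2F word lay in the 250 bases before the start in 9 of these 37 (24.3%), namely Cdc6, Gins3, Mcm5, Mcm6, Mcm7, Orc1, Orc3, Pola1 and Rfc3, against 583 of 27025 genes in the table (2.16%). In the 100 bases before the start it was 5 of 37 (13.5%), against 0.981% of all genes. CCAAT occurred in 22 of 37 replication promoters (59.5%), against 37.5% of all, and in all 5 MCM promoters in the table. The word TTTGAA, the core of the cell cycle homology region of late cell cycle genes, occurred in 6 of 37 (16.2%), against 18.3% of all. These matches describe letters only, and genes with an E2F word fell on both sides of the pattern described next.

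The replication genes were lower in p27 high and p27 low cells than in p27 negative cells under both treatments, to very unequal degrees. In LPS cells, 39 of the 46 were lower in p27 high than in p27 negative cells with a median log2 fold of -0.60, and 41 were lower in p27 low than in p27 negative cells, the median being -0.88. In control cells 41 were lower in p27 high cells (-0.73) and 42 in p27 low cells (-0.93). The median of all 11080 genes with a mean of at least 5 CPM, a limit that all 46 genes passed, was 0.07, 0.03, 0.05 and 0.06 in the same 4 comparisons. A lower level at any size occurred in 45.3%, 47.6%, 46.9% and 46% of all genes.

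At least 2-fold lower levels were found for 11 of 46 genes in LPS p27 high over negative cells, where 7.32% of all genes passed that fold, and for 21 in LPS p27 low over negative cells, where 9.93% did. In control cells the counts were 14 for p27 high over negative, with 8.47% of all genes, and 20 for p27 low over negative, with 8.33%. Orc5 in LPS p27 high cells was the only replication gene at least 2-fold higher in any of these 4 comparisons, where 11.8% and 7.45% of all genes were in LPS p27 high and low over negative cells and 12.5% and 10.1% in control p27 high and low over negative cells. When each group was cut into 3 by cell number, the median log2 fold of the 46 genes stayed below 0 each time. It ran from -1.14 to -0.33 for LPS p27 high, from -1.28 to -0.58 for LPS p27 low, from -1.11 to -0.52 for control p27 high and from -1.29 to -0.21 for control p27 low over negative cells. These parts hold cells of the same 1 sample per group and are not replicates. They show how widely the value varies with the cells taken and do not support the class difference. Scaled to ERCC reads, the median of all genes in these comparisons moved to -0.71 and -0.85 for LPS p27 high and low and to -0.36 and -0.28 for control p27 high and low over negative cells, and the replication genes lay -0.69, -0.92, -0.80 and -0.97 from it. In the plot of log2 folds over p27 negative cells the MCM genes lie between -1.14 (Mcm7 in control p27 low cells) and 0.16 (Mcm7 in LPS p27 high cells), and the lowest point of each of the 4 comparisons belongs to Clspn, Mcm10 or Cdc45.

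**Figure D1:**
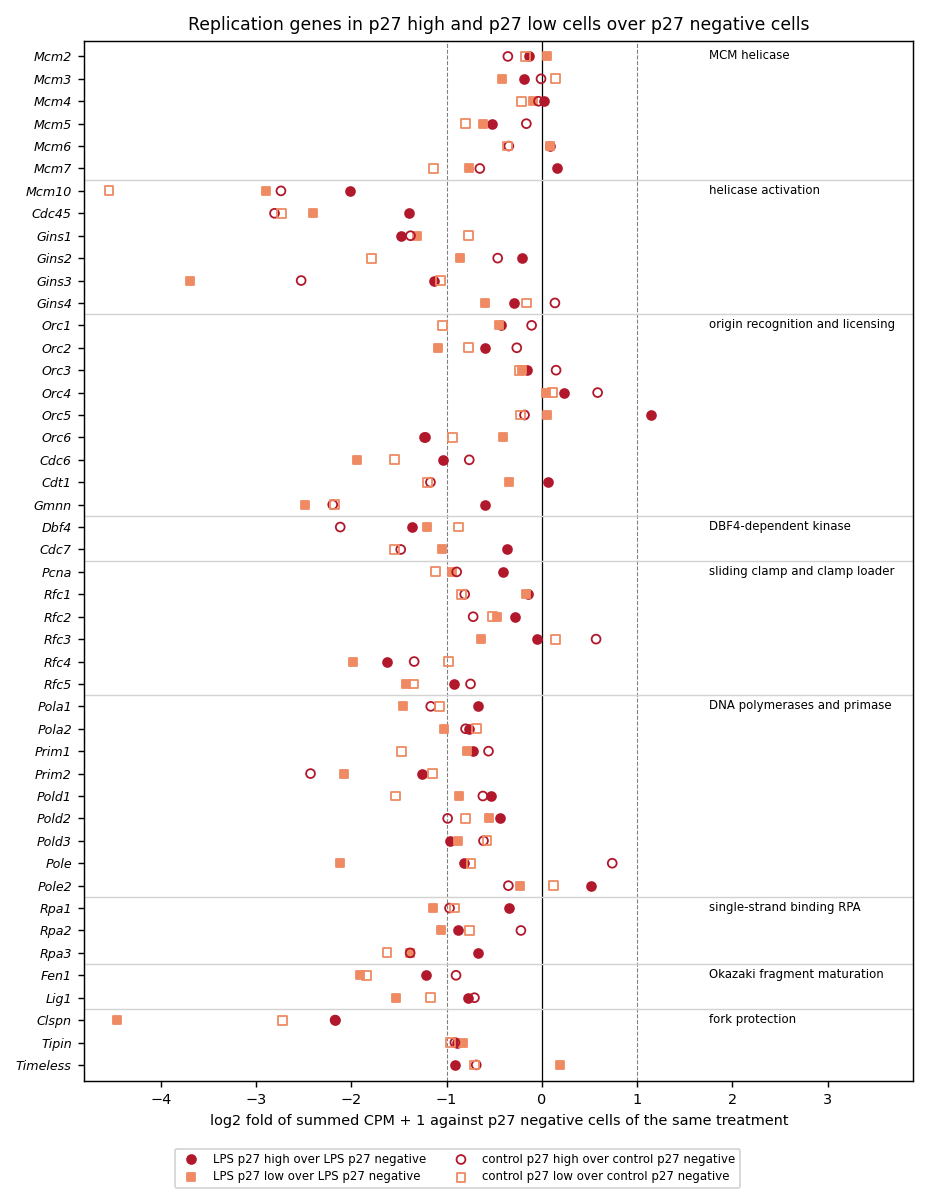
Log2 fold of summed CPM + 1 for each of the 46 replication genes in p27 high (circles) and p27 low (squares) cells over p27 negative cells of the same treatment, filled for LPS and open for control, grouped by role. Dashed lines mark 2-fold, and Orc5 in LPS p27 high cells is the only point to the right of 1, a fold that is under 2-fold when scaled to ERCC reads.

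Of the 6 MCM2-7 genes, whose products form the helicase ring, Mcm2, Mcm3, Mcm4 and Mcm6 differed by 1.28, 1.34, 1.20 and 1.43 times between their highest and lowest group, and Mcm5 and Mcm7 by 1.753 and 2.21 times. Mcm6 had 840, 839 and 791 CPM in LPS p27 high, low and negative cells, against 592, 588 and 753 CPM in the same control classes. Its highest level was in LPS p27 high and its lowest in control p27 low cells. Mcm2 had 390, 446 and 430 CPM in the LPS classes and 367, 417 and 470 CPM in the control classes. Mcm3 had 392, 335 and 448 CPM under LPS and 367, 407 and 369 CPM in control, and Mcm4 had 231, 213 and 227 CPM and 219, 193 and 224 CPM. In these sums none of the 4 genes was highest in p27 negative cells under both treatments. Mcm2, Mcm4 and Mcm6 were highest there in control cells only, and Mcm3 under LPS only. Mcm5, with 302, 282 and 435 CPM in the LPS classes and 387, 248 and 434 CPM in the control classes, was highest in p27 negative cells under both treatments. Mcm7 had 345, 182 and 310 CPM under LPS and 252, 179 and 396 CPM in control, and control p27 low over negative cells was the only one of the 4 comparisons with p27 negative cells in which an MCM gene was 2-fold lower (log2 fold -1.14). Per kilobase of exon Mcm6 had the highest level of all 46 genes in LPS p27 high cells, 180 CPM per kb, and in control p27 high cells, 127 CPM per kb.

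Single cells were far less even than these sums. Mcm2 ran from 0 to 1951 CPM with a median of 29.5 CPM over LPS p27 high cells, and from 0 to 1844 CPM with a median of 286 CPM over LPS p27 negative cells. In control p27 high cells its median was 95.3 CPM (0 to 1951), against 228 CPM (0 to 2720) in control p27 negative cells. The Mcm2 sums were thus close while the median p27 high cell held less. One cell supplied 22.9% of the Mcm2 reads of LPS p27 high cells, and without it the sum was 315 CPM. With every cell weighted equally, the log2 folds of the 6 genes ran from -0.81 (Mcm5) to -0.23 (Mcm6) in LPS p27 high over negative cells and from -1.01 (Mcm7) to 0.02 (Mcm4) in control p27 high over negative cells. Summed over MCM2-7, the median cell had 1131, 1690 and 2489 CPM in LPS p27 high, low and negative cells, against 1038, 1218 and 2007 CPM in the control classes.

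The 6 genes that turn the loaded ring into a helicase had median log2 folds over p27 negative cells of -1.27 and -1.86 in LPS p27 high and low cells and -1.95 and -1.43 in control p27 high and low cells. That was the lowest median of the 9 roles in each comparison except control p27 low, where the 2 Okazaki fragment genes had -1.50. Cdc45 had 53.5 (51 to 56), 26.2 (24.3 to 28.1) and 143 (139 to 146) CPM in LPS p27 high, low and negative cells, against 21.5 (19.6 to 23.5), 22.7 (21 to 24.5) and 156 (153 to 160) CPM in control p27 high, low and negative. Mcm10 had 20.003, 10.4 and 84 CPM in the LPS classes and 17.9, 4.40 and 125 CPM in the control classes, with log2 folds over p27 negative cells of -2.02 and -2.89 under LPS and -2.74 and -4.54 in control. Both p27 negative groups lay above all 4 other groups for Cdc45 and Mcm10. One cell held 82.1% of the Mcm10 reads of control p27 low cells and another 41.9% of those of control p27 negative cells, and without the highest cell of each group the levels were 0.8 and 76.2 CPM. A single cell also supplied 31.8% of the Cdc45 reads of LPS p27 high cells, where the level without it was 37.6 CPM.

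At 50000 reads per cell, at least 1 Cdc45 read was found in 17.2%, 16.7% and 62% of LPS p27 high, low and negative cells, against 17.9%, 17.2% and 58.9% of control cells. The median cell had no Cdc45 read in the 4 p27 high and low groups, and 81.4 and 75.2 CPM in LPS and control p27 negative cells. Of the GINS subunits, Gins3 had 26, 3.60 and 58.4 CPM in the LPS classes and 6.63, 19.98 and 43 CPM in the control classes, highest in p27 negative cells each time. Gins1 was 2-fold lower in 3 of the 4 comparisons with p27 negative cells, and control p27 low cells (log2 fold -0.77) were the exception. Gins4 differed by at most 0.60 on the log2 scale in these comparisons. Gins2 cannot be read with certainty, because 2758 of its 4097 exon bases lie over Gse1 on the opposite strand and the strand setting of the counts is not known here. The plot of levels shows all 6 MCM genes above 6 genes picked after their values were seen for being highest in p27 negative cells. Of those 6, Clspn is a fork protection and Gmnn a licensing gene, and the activation genes Gins2 and Gins4 are not drawn.

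**Figure D2:**
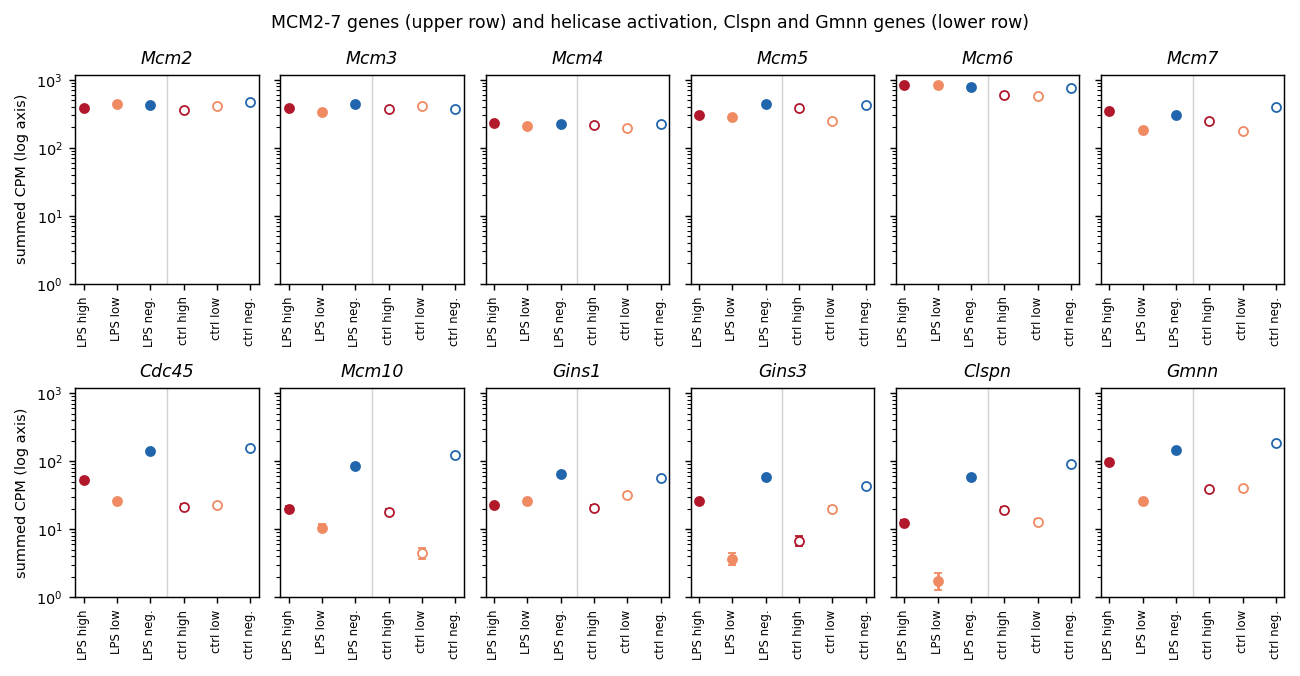
Summed CPM (log axis) of the MCM2-7 genes in the upper row and of Cdc45, Mcm10, Gins1, Gins3, Clspn and Gmnn in the lower row, in LPS (filled) and control (open) p27 high, low and negative cells, with exact 95% Poisson intervals of the counts. The upper row stays between 179 and 840 CPM in all groups, while in the lower row both p27 negative groups lie above every p27 high and low group.

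Among the genes that mark and license origins, the ORC subunits had no common direction. Orc1, the largest ORC subunit, had 9.13, 8.96 and 12.6 CPM in LPS p27 high, low and negative cells, against 7.18, 3.29 and 7.82 CPM in the control classes, the lowest mean of the 46 genes. One cell held 64.7% of the Orc1 reads of control p27 high cells, where the level without it was 2.59 CPM. Orc4 ran against the general direction, with 95.7 CPM in p27 high, 84.2 in p27 low and 81.5 in p27 negative LPS cells, and in control cells with 158 CPM in p27 high, 114 in p27 low and 105 in p27 negative cells (log2 fold of high over negative 0.59). Orc5 was higher in p27 high cells under LPS, with 90.2 CPM in p27 high, 41.7 in p27 low and 40.3 in p27 negative cells (1.14). The Poisson intervals of the Orc5 high and low levels under LPS were 87 to 93.4 and 39.3 to 44.2 CPM. They do not cover differences between cells or animals, so they do not tell if the classes differ. Orc6, the smallest subunit, went the other way and had 46.8, 83.3 and 111 CPM in the LPS classes and 47.7, 58.4 and 113 CPM in the control classes. Orc2 reads also cover exons of Nif3l1 over 1150 bases.

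Cdc6 and Gmnn were lower in p27 high and low than in p27 negative cells under both treatments, although Cdc6 had a log2 fold of 0.66 for control p27 low over negative in cells numbered 33 to 64. Cdc6 had 32.3, 16.8 and 67.2 CPM in LPS p27 high, low and negative cells, against 29.2, 16.5 and 50.1 CPM in the control classes. One cell held 54.7% of its control p27 high reads, and without it that level was 13.6 CPM. Cdt1 had 150, 113 and 144 CPM under LPS, where p27 high and negative cells were close, and 116, 114 and 262 CPM in control, where p27 negative cells were highest, but its log2 fold of control p27 low over negative was 0.19 in cells numbered 33 to 64. Gmnn, the gene of the Cdt1 inhibitor geminin, had 97.5, 25.5 and 148 CPM in the LPS classes and 39.6, 40.2 and 185 CPM in the control classes. The median Gmnn level over cells was 4.69, 1.88 and 130 CPM under LPS and 3.18, 2.41 and 123 CPM in control. Of the kinase that starts activation, the regulatory subunit gene Dbf4 had 37.8, 42.4 and 98.7 CPM in the LPS classes and 24.8, 60.1 and 111 CPM in the control classes. The catalytic subunit gene Cdc7 had 82.1, 50.6 and 106 CPM under LPS and 75.5, 72 and 212 CPM in control.

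Pcna, the sliding clamp, was found in most cells of every group but was lower in p27 high and low cells. It had 181, 125 and 241 CPM in LPS p27 high, low and negative cells, against 133, 114 and 248 CPM in the control classes. At 50000 reads it was detected in 80.6%, 85.6% and 98.9% of LPS cells and in 86.9%, 80.6% and 88.4% of control cells, so the classes differed in level more than in detection. The annotated pseudogenes Pcna-ps1 and Pcna-ps2 could share reads with it. Of the 5 clamp loader genes, Rfc4 had the lowest log2 fold in 3 of the 4 comparisons with p27 negative cells, all but control p27 low, with 61.5, 47.9 and 192 CPM in the LPS classes and 56, 72 and 143 CPM in the control classes. Rfc3 was the exception in control cells, with 146 CPM in p27 high and 108 CPM in p27 low cells against 98.2 CPM in p27 negative cells. One cell held 42.3% of the Rfc3 reads of control p27 low cells, and the level without it was 65.3 CPM.

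The 9 polymerase and primase genes had median log2 folds over p27 negative cells of -0.72 and -0.88 in LPS p27 high and low cells and -0.62 and -0.80 in control p27 high and low cells. Prim2, the regulatory subunit of primase, had the lowest fold of the 9 in control p27 high cells (-2.43), with 18.2 CPM against 102 CPM in control p27 negative cells. Under LPS it had 57.8 CPM in p27 high, 32.3 in p27 low and 140 in p27 negative cells, and 1 cell held 61.9% of the LPS p27 high reads, without which the level was 23.1 CPM. Pole, the catalytic subunit of the leading strand polymerase epsilon, had 129, 45.6 and 77 CPM in the control p27 high, low and negative classes, so p27 high cells were highest. Under LPS the order was different, with 63.8, 25.3 and 113 CPM. Pole reads were found in 28%, 14.4% and 63% of LPS p27 high, low and negative cells, against 33.3%, 22.6% and 43.2% of control cells at 50000 reads, so even in control the p27 high class did not have the most cells with the transcript. Pola1, the catalytic subunit of polymerase alpha, was lower in all 4 comparisons, with log2 folds from -1.46 to -0.67.

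All 3 RPA genes were lower in all 4 comparisons, with log2 folds from -1.63 (Rpa3 in control p27 low cells) to -0.22 (Rpa2 in control p27 high cells). Fen1, the flap nuclease of Okazaki fragments, had 11.4, 6.66 and 27.8 CPM in LPS p27 high, low and negative cells, against 12.9, 6.24 and 24.9 CPM in the control classes, but most of its exon bases (2039 of 2422) are shared with Gm10143 and Tmem258 on the opposite strand. Lig1, the ligase that joins the fragments, had 175, 103 and 299 CPM in the LPS classes and 168, 122 and 276 CPM in the control classes. Both genes were lowest in p27 low cells under each treatment. Among the fork protection genes, Clspn, which encodes the checkpoint mediator claspin, had 12.3, 1.73 and 59 CPM in the LPS classes and 19.3, 12.8 and 90.5 CPM in the control classes. Its log2 fold of LPS p27 low over negative cells was -4.46, and 1 cell held 62.5% of the few LPS p27 low reads. Timeless was higher only in LPS p27 low cells (log2 fold over negative 0.19), with 83.6 CPM against 73.2 CPM in LPS p27 negative cells.

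Across all 6 groups, 18 of the 46 genes had their highest level in LPS p27 negative cells and 20 in control p27 negative cells, 3 and 1 in LPS p27 high and low cells, and 4 and 0 in control p27 high and low cells. The lowest level was in LPS p27 low cells for 18 genes and in control p27 low cells for 15, against 3 and 7 in LPS and control p27 high cells and 2 and 1 in LPS and control p27 negative cells. No such counts over all genes are given here, so these describe the 46 genes only and cannot be set against a background. Summed over the 46 genes, the level was 6249, 5221 and 8362 CPM in LPS p27 high, low and negative cells, against 5842, 5221 and 8807 CPM in the control classes.

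A list of 42 other genes of replication, its chromatin assembly and its control ran the same way. In LPS cells 34 were lower in p27 high and 35 in p27 low than in p27 negative cells, the medians being -0.70 and -0.64, and in control cells 32 and 37 were lower, with medians of -0.58 and -0.63. Of all genes, 45.3% and 47.6% were lower in these LPS comparisons and 46.9% and 46% in the control ones. The 4 genes named next had the largest folds in control p27 high over negative cells among those within the limits of the naming rule given below. They are thus not typical of the list, of which 10 genes were higher in that comparison, 1 of them at least 2-fold. Pclaf, the gene of a PCNA-binding factor, had 2.26 CPM in control p27 high and 120 CPM in control p27 negative cells (log2 fold -5.21). Asf1b, a histone chaperone gene, had 21.7 against 242 CPM in these classes, and Fbxo5, the gene of the anaphase-promoting complex inhibitor Emi1, had 12.4 against 173 CPM. Chtf18, a subunit gene of an alternative clamp loader, had 4.28 against 31 CPM. Genes of G2 and mitosis differed between the same classes, and by more. All 30 listed G2/M genes were at least 2-fold lower in all 4 comparisons, with medians of -4.71 and -5.40 in LPS p27 high and low over negative cells and -5.14 and -4.47 in control. In the same order, 7.32%, 9.93%, 8.47% and 8.33% of all genes were at least 2-fold lower. Their summed level was 312, 214 and 6297 CPM in LPS p27 high, low and negative cells, against 286, 480 and 7139 CPM in the control classes. Megakaryocyte and platelet markers also differed between the classes, with summed levels of 284, 991 and 1107 CPM in the LPS classes and 357, 1378 and 1455 CPM in the control classes, and none of the 8 was at 0. Erythroid markers had 2272, 3892 and 4283 CPM under LPS and 2306, 3121 and 3843 CPM in control. Myeloid markers had 810, 598 and 461 CPM and 1137, 1067 and 689 CPM, and lymphoid markers 102, 210 and 152 CPM and 130, 210 and 250 CPM. Of 10 listed genes each, 5 to 8 myeloid and 2 or 3 lymphoid markers had at least 1 CPM in each group. Ctsg had no read in any group, but in all 3 control classes and in LPS p27 low cells it was the only myeloid gene at 0. Rag1 was at 0 in all 6 groups, in each of which 3 to 7 of the 10 lymphoid genes were at 0. The part of any of these cell types in the replication levels was not tested.

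The contrast of p27 high with p27 low cells asks if replication genes follow marker level among marked cells. In control cells 17 of 46 genes were lower in p27 high cells, where 49.7% of all genes were, with a median log2 fold of 0.06 and 3 genes 2-fold lower and 3 higher, where 7.47% and 9.14% of all genes were. Mcm10 was higher in control p27 high than in control p27 low cells, 17.9 against 4.40 CPM, and so were Pole (log2 fold 1.48) and Gins2 (1.32). Gins3, Prim2 and Dbf4 were lower, with log2 folds of -1.46, -1.28 and -1.25, but Gins3 had 2.43 in cells numbered 65 to 96. Under LPS 39 of 46 genes were higher in p27 high than in p27 low cells, and the median was 0.38 against 0.06 over all genes, where 45.2% were lower. Of the 46, 6 were at least 2-fold higher, against 12% of all genes, and 1 was 2-fold lower, against 6.25%. Gins3 had 26 against 3.60 CPM, Clspn 12.3 against 1.73 CPM and Gmnn 97.5 against 25.5 CPM in LPS p27 high and low cells. Timeless, Orc6 and Mcm2 were on the other side, with log2 folds of -1.10, -0.82 and -0.19. The median cell did not show the LPS difference. The median cell had 17 replication genes in LPS p27 high and 20 in LPS p27 low cells at 50000 reads, the reverse of the sums, and with every cell weighted equally 14 of the 46 were lower in p27 high cells and the median was 0.17.

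LPS and control cells were compared within each class to ask whether the treatment moved replication genes. Most differed little. The median log2 fold of LPS over control was 0.09 in p27 high, -0.10 in p27 low and -0.01 in p27 negative cells, against -0.10, -0.17 and -0.13 over all genes, and 17, 26 and 24 of the 46 genes were lower, against 55.9%, 60.3% and 59.7% of all genes. In p27 high cells 5 genes were at least 2-fold higher, where 7.63% of all genes were, and 1 was 2-fold lower, where 12% were. In p27 low cells 2 were higher and 2 lower, where 7.89% and 16.6% of all genes were. In p27 negative cells 1 was lower and none higher, where 10.2% and 6.22% were. Counted per ERCC spike-in read instead of per gene read, the median of all genes shifted to 1.29, 1.05 and 1.63 in the 3 classes and that of the replication genes to 1.51, 1.13 and 1.80, so the replication genes differed from all genes by 0.22, 0.08 and 0.17. These shifts use reads summed per group, and the cell medians of reads per spike-in read given above differ less between LPS and control, so the size of the shift depends on that choice. The directions of LPS over control are given for shares of RNA only.

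The genes with the largest LPS differences were not the same in the 3 classes. In p27 high cells Gins3 had 26 CPM under LPS and 6.63 CPM in control, Prim2 57.8 and 18.2 CPM, and Gmnn 97.5 and 39.6 CPM (log2 folds of 1.82, 1.61 and 1.28), and Pole had 63.8 and 129 CPM (-1.01). Orc4 and Rpa2, the next by the naming rule, had -0.72 and -0.54. Clspn (-0.61) was not named by it because the fold was 0.22 with cells weighted equally. In p27 low cells Clspn and Gins3 were lower under LPS, with 1.73 and 12.8 CPM for Clspn and 3.60 and 19.98 CPM for Gins3, and Orc5 had 41.7 and 80.3 CPM in LPS and control cells. In cells numbered 65 to 96 the direction turned for Clspn and Gins3, with log2 folds of 1.30 and 1.66. Mcm10, Timeless and Prim1 were higher there, with log2 folds of 1.08, 0.87 and 0.72, but Mcm10 had -2.67 in cells numbered 1 to 32 and -0.11 in cells numbered 33 to 64. In p27 negative cells Orc5 had 40.3 CPM under LPS and 93.7 CPM in control (-1.20), Cdc7 106 and 212 CPM and Cdt1 144 and 262 CPM (-0.86), while Rfc3, Orc1 and Pole were higher with 0.64, 0.63 and 0.55. Leaving out the highest cell of each group gave 0.77 for Prim2 in p27 high cells, and weighting every cell equally gave 0.97 for Gins3 there. The plot of LPS over control shows the MCM genes within 0.51 of 0 in all 3 classes and the spread of Gins3.

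**Figure D3:**
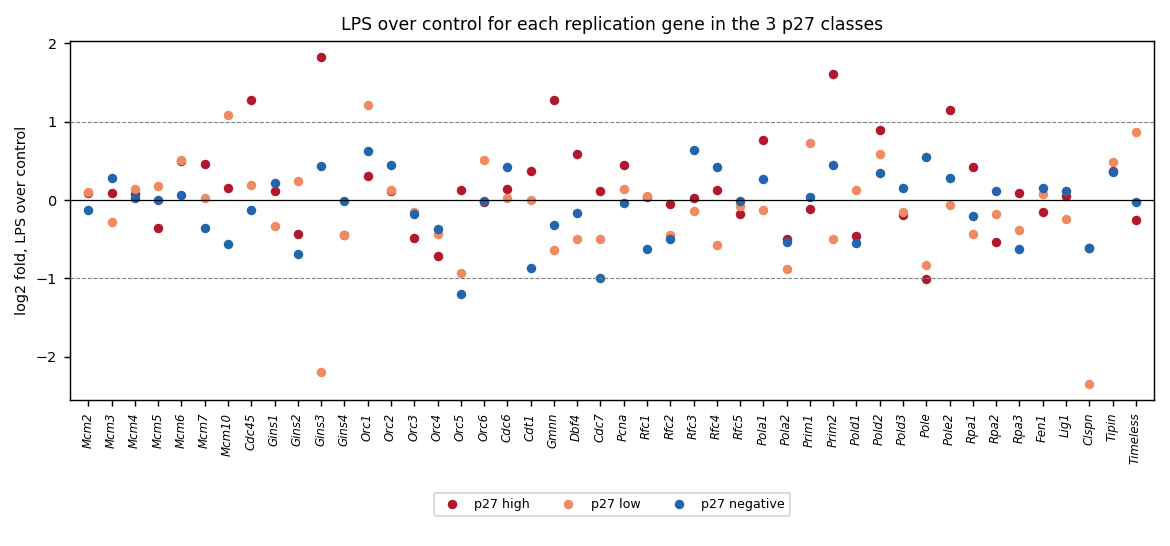
Log2 fold of LPS over control (summed CPM + 1) for each of the 46 replication genes in p27 high, p27 low and p27 negative cells, with dashed lines at 2-fold. Most points lie between the lines, and Gins3 stands at 1.82 in p27 high and -2.19 in p27 low cells.

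Each cell was then described by how many of the 46 genes had a read once every cell was thinned to 50000 reads. The count ran from 6 to 42 with a median of 17 in LPS p27 high cells, from 6 to 36 (median 20) in LPS p27 low cells and from 10 to 44 (median 33) in LPS p27 negative cells. In control cells it ran from 7 to 38 (median 18) in p27 high, from 5 to 38 (median 18) in p27 low and from 3 to 43 (median 31) in p27 negative cells. The p27 negative cells also had more genes of any kind at this depth, with medians of 3979, 3961.5 and 4931.5 genes in the LPS classes and 3926.5, 4165 and 4842 in the control classes. The Spearman correlation of replication genes with all genes detected was 0.80, 0.73 and 0.39 over the 93, 90 and 92 cells of LPS p27 high, low and negative, and 0.75, 0.68 and 0.74 over the 84, 93 and 95 control cells. Both counts come from the same reads of a cell, and the part of gene number in the class difference was not tested. Without thinning and with at least 5 reads per gene, the median was 12, 17 and 34 in LPS p27 high, low and negative cells, against 12.5, 12 and 31 in the control classes.

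Some p27 high and low cells held many replication transcripts and fewer than 15 of the 30 G2/M genes. At least 20 of the 46 genes were found in 36.6% (34 of 93, 26.8 to 47.2%), 52.2% (47 of 90, 41.4 to 62.9%) and 88% (81 of 92, 79.6 to 93.9%) of LPS p27 high, low and negative cells. In control cells the shares were 40.5% (34 of 84, 29.9 to 51.7%), 39.8% (37 of 93, 29.8 to 50.5%) and 73.7% (70 of 95, 63.6 to 82.2%), with exact Clopper-Pearson intervals that cover counting error only. At a limit of 25 genes the LPS p27 high and low shares were 25.8% and 21.1%, so their order turned. No p27 high or low cell had 15 or more of the 30 G2/M genes, against 73 of 92 LPS and 58 of 95 control p27 negative cells that had both 20 replication genes and 15 G2/M genes. The limit of 15 lies just above the highest G2/M counts of these cells, 14 and 11 in LPS p27 high and low and 13 and 14 in control p27 high and low cells, and medians were 3 to 4.5 genes. That none of these cells reached 15 follows from where the limit lies, and no other G2/M limit is given here. The medians of 19 and 20 G2/M genes in LPS and control p27 negative cells do not depend on the limit. Cells with 19 or 20 replication genes, next to the limit of 20, numbered 4, 12 and 3 in the LPS classes and 9, 9 and 4 in the control classes. In the plot of single cells the p27 high and low cells reach up the left side, and p27 negative cells fill the upper right.

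**Figure D4:**
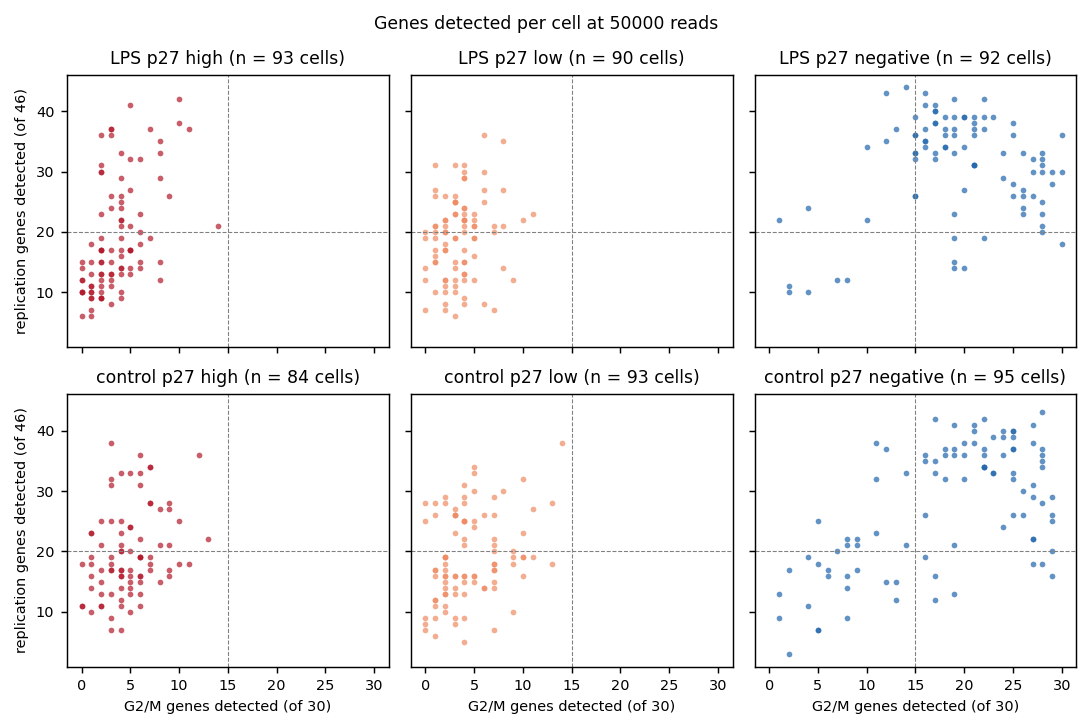
Number of the 46 replication genes (vertical) and of 30 G2/M genes (horizontal) with at least 1 read in each kept cell at 50000 reads, 1 panel per group, with dashed lines at 20 and 15 genes. No p27 high or low cell lies to the right of the vertical line, a limit just above the highest of their counts. At or above the horizontal line are 36.6% of LPS p27 high, 52.2% of LPS p27 low, 40.5% of control p27 high and 39.8% of control p27 low cells.

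MCM2-7 genes and 5 genes with low levels in p27 high and low cells were also counted in each cell. At least 5 of the 6 MCM2-7 genes were detected in 48.4%, 58.9% and 80.4% of LPS p27 high, low and negative cells, against 50% (42 of 84), 52.7% and 66.3% of control cells. At least 3 of the 5 genes Cdc45, Mcm10, Gins1, Gins3 and Clspn, a set chosen after the levels had been seen, were detected in 11.8%, 4.44% and 53.3% of LPS cells and in 8.33%, 4.30% and 44.2% of control cells. Among cells with at least 5 MCM2-7 genes, none of these 5 was detected in 33.3% (15 of 45, 20.001 to 49%), 35.8% (19 of 53, 23.1 to 50.2%) and 4.1% (3 of 74, 0.8 to 11.4%) of LPS p27 high, low and negative cells. The control shares were 35.7% (15 of 42, 21.6 to 52%), 36.7% (18 of 49, 23.4 to 51.7%) and 11.1% (7 of 63, 4.6 to 21.6%). The MCM genes have more reads than these 5, so a missing read says less for the 5. Because the set was chosen for its levels and leaves out Gins2 and Gins4, its shares restate that choice and support nothing.

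Within groups, MCM2-7 genes were the most correlated of the roles with at least 15 pairs. The median Spearman correlation over the 15 MCM pairs was 0.51, 0.41 and 0.50 in LPS p27 high, low and negative cells, against 0.45, 0.50 and 0.47 in control cells. Over the 15 pairs of helicase activation genes it was 0.17, 0.03 and 0.27 under LPS and 0.15, 0.11 and 0.36 in control, and over the 36 pairs of origin and licensing genes 0.14, 0.11 and 0.18 under LPS and 0.06, 0.04 and 0.14 in control. Genes with few reads give weak correlations in sparse counts, and the roles differ in reads per gene. In LPS p27 negative cells summed MCM2-7 level and summed G2/M level had a correlation of -0.40 over 92 cells, against -0.04 over 95 control p27 negative cells, in LPS and control p27 high cells it was 0.42 and 0.47, and in LPS and control p27 low cells 0.24 and 0.07.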

How the data were processed

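Messenger RNA was measured in 576 single mouse HSCs, 96 in each of 6 groups named by treatment and p27 class in the labels. The deposited tables hold raw read counts per gene made by the authors, 46078 genes and 92 ERCC spike-ins per cell. Per the submitters' processing notes, GSNAP 2015-09-29, HTSeq 0.6.0 and the build mm10 were named, and the annotation release and strand setting are not stated there. Of all reads, 34.1% lay in genes, 2.06% in spike-ins and 52.7% were not aligned, and rows that name no gene stayed out of all totals. Gene names were matched by Ensembl identifier to GENCODE M21, which named 45229 genes.

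Cells with at least 50000 gene reads were kept, and their counts were summed per group and divided by summed gene reads (CPM). Log2 folds were taken on CPM + 1, which understates folds of low genes, over the 11080 genes with a mean of at least 5 CPM in the 6 groups, and a 2-fold difference was counted as called. Labels name no animal, so each group was 1 sample and no test was made. Cells were thinned to 50000 reads for shares and counts of detected genes, and doublets were not called. In each comparison the 3 genes with the largest folds each way were named if the higher group reached 10 CPM and the direction held with cells weighted equally and with the top cell removed. MCM2-7, Cdc45, Mcm10, Cdt1, Cdc6, Gmnn, Orc1, Pcna, Fen1, Lig1, Clspn and Pole were always given, and other genes were named after their values were seen. The members, lists and motif words were chosen with earlier results of these data known. Recovery of known folds from summed counts, with a fixed spread between cells, and the thinning step were tested on simulated data. The other steps were not. Alternatives covered cell and gene filters, the value added before logs, TMM factors, ERCC scaling, equal weight per cell, leaving out the top cell and splitting cells by number. Python 3.11.15, numpy 2.4.6, pandas 2.3.3, scipy 1.17.1, matplotlib 3.10.9 and R 4.3.3 with edgeR 4.0.16, for TMM factors only, were used.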

Additional observations from a re-analysis of the deposited data

Results flagged for a closer look

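Gins3, a subunit gene of the GINS complex, differed between LPS and control cells in opposite directions in 2 p27 classes. Its log2 fold of LPS over control was 1.82 in p27 high cells, with 26 CPM under LPS and 6.63 CPM in control, and -2.19 in p27 low cells, with 3.60 CPM under LPS and 19.98 CPM in control. In cells numbered 65 to 96 the p27 low fold was 1.66, and with cells weighted equally the p27 high fold was 0.97. It drew attention because the only sample of each class moved the opposite way, and the difference between the classes was not tested. One cell held 41% of the Gins3 reads of LPS p27 low cells.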

How the results depend on the processing

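No paired analysis was possible because the results come from no test, and cell numbers only name cells of groups that are 1 sample each. Each group had 1 sample, so differences between animals are not covered, and genes under about 10 CPM rest on few cells. A minimum of 1000 genes per cell removed no kept cell and so shows nothing. Leaving out the highest cell of each gene and filters at a mean of 1 CPM, 10 CPM or 1 read moved no main count by over 1.5 times. Scaling to ERCC reads changed the count of genes 2-fold apart for LPS over control to 37 in p27 high (6 as reported), 31 in p27 low (4) and 43 in p27 negative cells (1), and the count of lower genes to 0, 2 and 0 (17, 26 and 24). All genes shifted with them. In the same order 66%, 52.6% and 82.4% of all genes were then at least 2-fold higher and 1.5%, 3.6% and 0.749% at least 2-fold lower. Lower at any size were 6.67%, 12.7% and 3.27% of all genes. ERCC scaling gave 34 for LPS p27 high over negative (12), 40 for LPS p27 low over negative (21), 29 for control p27 high over negative (14) and 34 for control p27 low over negative (20). At least 2-fold lower were then 32%, 39.5%, 16.7% and 13.4% of all genes in the same order. At least 2-fold higher were 4.31%, 2.24%, 6.03% and 4.97%. With every cell weighted equally the 2-fold counts were 2 and 0 for LPS over control in p27 high and negative cells, 3 for LPS p27 high over low (7) and 20 for LPS p27 high over negative, and 14 genes were lower in LPS p27 high than low cells (7), against 11 with TMM factors. With at least 200000 reads per cell 26 genes were lower in LPS p27 high than in control p27 high cells, and the 2-fold count in p27 negative cells was 2, as it was with all cells, with at most 10% mitochondrial reads and with 0.1 CPM added. Adding 5 CPM gave 2 for p27 low cells.

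Single parts of the cells moved most counts. With cells 1 to 32, 33 to 64 and 65 to 96, the 2-fold counts that moved were 17 and 11 (first and last) for LPS over control in p27 high, 16, 18 and 11 in p27 low and 7, 7 and 3 in p27 negative cells. They were 13 and 19 (first and middle) for LPS p27 high over low, 27 (first) for LPS p27 high over negative, 19, 14 and 12 for control p27 high over low (6), 28 and 23 (first and last) for control p27 high over negative and 12 (middle) for control p27 low over negative. The shares of all genes rose too. In these parts 13% to 24.6% of all genes were at least 2-fold lower, against 6.25% to 16.6% with all kept cells. At least 2-fold higher were 10.6% to 19.9%, against 6.22% to 12.5%. A moved count thus need not be particular to the 46 genes. Counts of lower genes for LPS over control were 27 (first) in p27 high, 15 (last) in p27 low and 12 (middle) in p27 negative cells, and 19, 11 and 15 for LPS p27 high over low. Of all genes 54.2%, 55.9% and 52.3% were lower in these LPS over control parts, and 47%, 46.6% and 46.4% in LPS p27 high over low.

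Log2 folds of single genes changed sign 13 times. In cells 1 to 32, Cdc45 had -0.52 for LPS over control in p27 high cells and -1.22 for LPS p27 high over low, and Mcm10 had -2.67 for LPS over control in p27 low cells, and -0.11 in cells 33 to 64. In cells 33 to 64, Cdc6 had 0.66 and Cdt1 0.19 for control p27 low over negative. In cells 65 to 96, Clspn had 1.30, Gins3 1.66 and Orc1 -1.86 for LPS over control in p27 low cells, Gins3 had 2.43 for control p27 high over low, and Pole had -0.059 for LPS p27 high over low. With ERCC scaling, Orc5 had 0.59 in p27 negative and Pole 0.43 in p27 high cells for LPS over control. Apart from the construction of each alternative, the cause was not tested. The limits of 15 and 25 replication genes per cell were chosen after seeing the data. At 15 the shares were 59.1%, 72.2% and 92.4% in LPS p27 high, low and negative cells, against 77.4%, 73.1% and 88.4% in the control classes, and at 25 they were 25.8%, 21.1% and 78.3% under LPS and 23.8%, 30.1% and 61.1% in control.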
